A study of Mus musculus with 6 samples.

Results

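The genes described here are 10 that encode the core machinery of mitochondrial fusion (*Mfn1*, *Mfn2*, *Opa1*), mitochondrial fission (*Dnm1l*, *Fis1*, *Mff*) and mitophagy (*Pink1*, *Fundc1*, *Bnip3*, *Bnip3l*). They were taken by symbol from the 23183 gene symbols measured in each library, and 10 of 10 were found and passed the filter on low values. The libraries are bulk RNA sequencing of microvessels isolated from mouse brain, 3 from WT mice and 3 from TEKCRIF1 KO mice, on a C57BL/6 background. KO mice carry a Cre recombinase driven by *Tek* and 2 floxed alleles of *Crif1*, the gene listed as *Gadd45gip1*, whose protein belongs to the mitochondrial ribosome. WT mice are Crif1+/+ and also carry the Cre, so both groups express the recombinase. *Tek* is active in endothelial cells, and Cre driven by it is known to act in blood cell lineages too, while pericytes, astrocytes and neurons are not its intended targets, so a KO library can mix cells with and without the deletion. Age and sex of the mice, and the dates of preparation, are not stated in the sources used here. In such bulk samples, fewer cells of a type and less RNA per cell cannot be told apart.

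Mitochondria form a network that is joined and divided by large GTPases of the dynamin family. The mitofusins, encoded by *Mfn1* and *Mfn2*, join outer membranes, and OPA1 joins inner membranes and shapes the cristae, while DRP1 (the product of *Dnm1l*) is drawn from the cytosol to the outer membrane by adaptors such as MFF and constricts the organelle. Damaged mitochondria are removed by mitophagy, either after the kinase PINK1 marks them for the ubiquitin ligase Parkin, or through outer-membrane receptors such as BNIP3, BNIP3L (also called NIX) and FUNDC1 that bind the autophagosome directly.

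Promoters of RefSeq (GRCm38.p6) were given for 9 of the 10 genes, all but *Bnip3l*. That of *Bnip3* is printed because the gene is a known target of the hypoxia-inducible factors, whose other targets are described with the pathway lists. The core of the hypoxia response element was searched as ACGTG on both strands (CACGT on the other strand) in the 250 bases before the transcript start, and a match can also be part of an E-box. The 9 genes have 14 promoters in the table, of which 2 held it, that of *Bnip3* and 1 of the 3 of *Mfn2*, beside 16.6% of the 32851 promoters of all genes. In the sequence, written 5′ to 3′ on the strand of the gene, capitals mark the match, which lies on both strands. A match describes the letters and says nothing of whether a factor binds there.
*Bnip3*, chr7:138909507-138909756, minus strand: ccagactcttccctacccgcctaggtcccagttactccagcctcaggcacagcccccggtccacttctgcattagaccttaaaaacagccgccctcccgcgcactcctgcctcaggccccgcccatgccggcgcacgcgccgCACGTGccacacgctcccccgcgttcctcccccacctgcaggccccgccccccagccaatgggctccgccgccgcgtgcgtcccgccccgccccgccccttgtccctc

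The values are FPKM, fragment numbers scaled to exon length and to the size of the library, and can therefore be compared between genes. Where 3 values are listed for a group they belong to libraries 1, 2 and 3 in that order. Depth, estimated from the spacing of the lowest values, was between 6300000 and 11600000 fragments per library, so that 3 fragments on a transcript of 1 kb equal 0.258 to 0.475 FPKM, depending on the library. *Crif1* itself had WT values of 18.8, 15.3 and 16.5 FPKM and KO values of 10.8, 7.54 and 10.4 FPKM, so every KO library lay below every WT library. All 8 endothelial marker genes examined were measured in every library, and their summed level ranged from 840 to 1130 FPKM in WT and from 773 to 993 FPKM in KO libraries. Most of that sum was *Cldn5*, a tight junction gene, at 420 to 702 FPKM. *Cdh5*, the gene of VE-cadherin, had WT values of 86.7, 92.4 and 91.3 FPKM and KO values of 50.8, 42.5 and 38.1 FPKM, without overlap (log2 fold change −1.03; limma p = 0.000303, the smallest of all genes tested, adjusted p = 0.841; exact permutation p = 0.1). The other 7 endothelial markers had log2 fold changes of −0.33 to 0.09. Among the KO libraries, KO 2 stood apart from KO 1 and KO 3. The summed level of 5 choroid plexus epithelium markers (*Ttr*, *Folr1*, *Kl*, *Aqp1*, *Clic6*) was 8900 FPKM in KO 1 and 10700 FPKM in KO 3, against 2990 FPKM in KO 2 and 2900 to 3360 FPKM in WT mice. Across 14151 genes, which are not independent replicates, the difference of a library from the mean of all libraries also had a Spearman correlation with transcript length of −0.29 in KO 1, 0.29 in KO 2 and −0.14 in KO 3, and of 0.02 to 0.05 in WT mice. Its Spearman correlation with GC content was 0.08, 0.31 and 0.15 for the WT libraries and −0.14, −0.25 and −0.03 for the KO libraries, and WT 2 had the largest.

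All 10 genes were clearly expressed in brain microvessels. In WT mice the mean level was 136 ± 10.3 FPKM for *Fis1*, 69.9 ± 6.32 for *Pink1* and 57.3 ± 5.52 for *Bnip3l* (SD, n = 3 each). *Fis1* stood above 97.1% of the genes tested and *Opa1*, the lowest of the 10, above 49.3%. The ranges of the WT libraries did not overlap between *Fis1* and *Pink1*, *Pink1* and *Bnip3l*, *Bnip3l* and *Mff*, *Mff* and *Mfn2*, or *Dnm1l* and *Mfn1*. The WT ranges of *Mfn2* and *Dnm1l* overlapped, as did those of *Mfn1* and *Bnip3*, *Bnip3* and *Fundc1*, and *Fundc1* and *Opa1*. *Fis1* was above *Pink1*, *Pink1* above *Bnip3l*, *Bnip3l* above *Mff*, *Mff* above *Mfn2*, and *Mfn1* above *Bnip3* in 6 of 6 libraries. The order held in 5 of 6 libraries for *Bnip3* over *Fundc1* and for *Fundc1* over *Opa1*, and in 4 of 6 for *Mfn2* over *Dnm1l* and for *Dnm1l* over *Mfn1*.

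**Figure D1:**
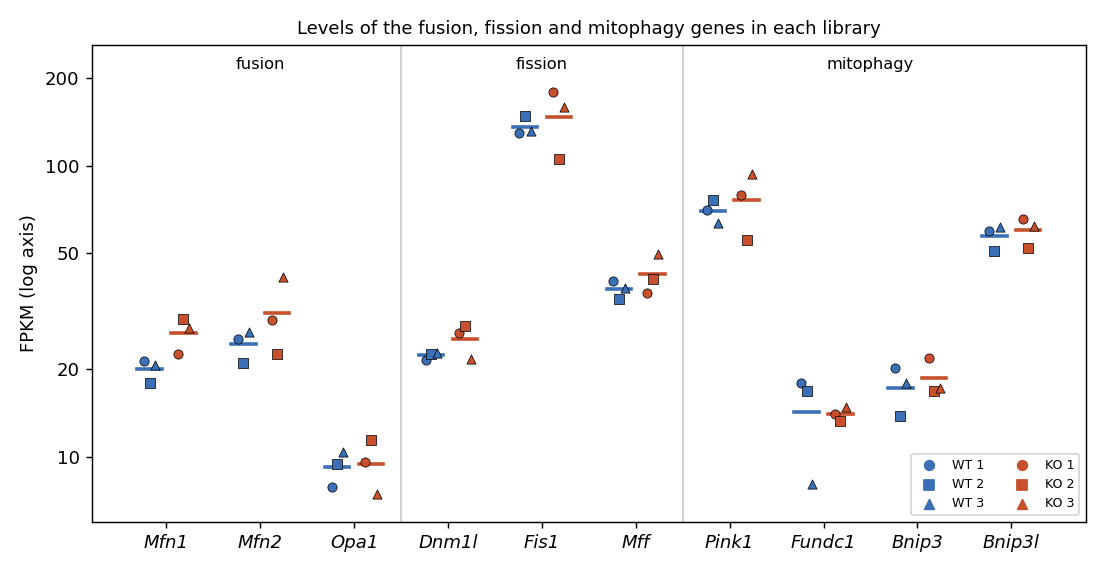
FPKM (log axis) of each of the 10 genes in WT (blue) and KO (red) libraries, with the shape of the point giving the replicate number and the bars the group means. *Fis1* is highest at 105 to 179 FPKM and *Opa1* lowest at 7.47 to 11.4 FPKM. *Mfn1* is the gene whose WT and KO points do not overlap.

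The comparison of KO with WT mice asks whether transcripts of the fusion, fission and mitophagy machinery differed when *Crif1* was deleted in the endothelium. None of the 10 genes passed the test: 0 of 10 had an adjusted p under 0.05 and 0 of 10 an unadjusted p under 0.05 (limma on log2(FPKM + 1), adjusted by Benjamini-Hochberg over the 14247 genes whose mean reached 1 FPKM). Over all genes tested the corresponding shares were 0% and 5.88%, made up of 2.77% with a higher and 3.11% with a lower KO level. The smallest p among the 10 genes was 0.0749 from limma for *Mfn1*, with an adjusted p of 0.841. The log2 fold changes (KO minus WT) were between 0.02 and 0.39, with a median of 0.10 beside −0.01 over all genes. Although the mean FPKM of *Fundc1* was slightly lower in KO mice, 10 of 10 log2 fold changes were above 0, where 49.2% of all genes were. When every library was adjusted for its dependence on GC content and transcript length (the length and GC adjustment), 5 of 10 were above 0 and the median was −0.01. With KO 2 alone set against WT mice, 4 of 10 were above 0 and the median was −0.02. With 3 mice in each group the exact permutation test, which was two-sided, has 0.1 as its smallest possible p.

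**Figure D2:**
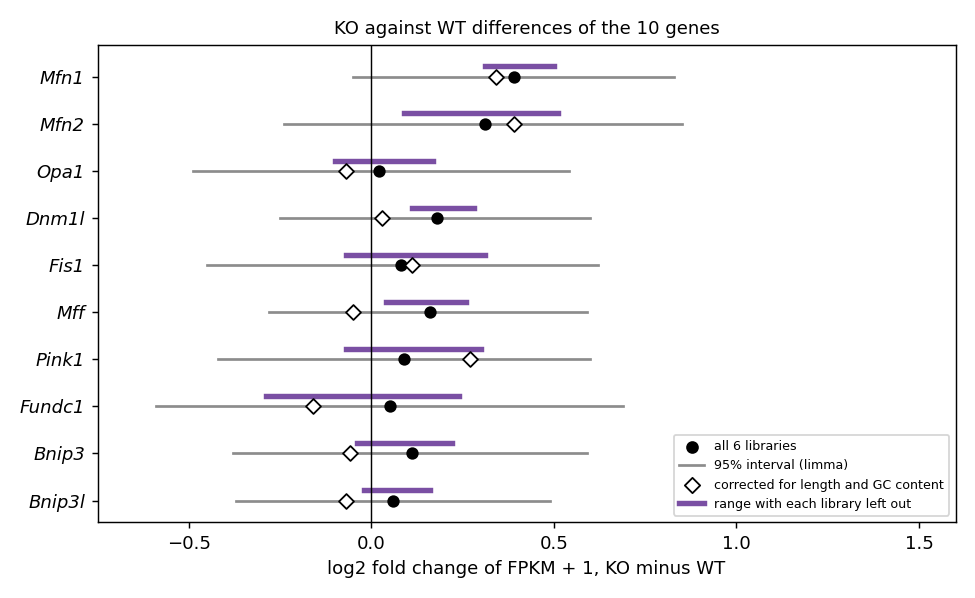
Log2 fold change (KO minus WT) of each gene, with its 95% limma interval in grey, the value after the length and GC adjustment as a diamond, and the range over the fits that leave out 1 library in purple. The 95% intervals of all 10 genes include 0, and the widest is that of *Fundc1*, from −0.59 to 0.69.

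Among the fusion genes, *Mfn1* had the largest difference. *Mfn1* (chr3:32529465-32579239) had WT values of 21.3, 17.9 and 20.7 FPKM and KO values of 22.6, 29.7 and 27.7 FPKM. Every KO library lay above every WT library, as in 5.37% of all genes tested (the reverse order held for 5.7%), although KO 1 was only slightly above WT 1. The means were 20 ± 1.82 and 26.7 ± 3.68 FPKM (SD, n = 3 per group), with a log2 fold change of 0.39 (0.20 standard error; 95% interval −0.05 to 0.83; limma adjusted p = 0.841, exact permutation p = 0.1). The highest *Mfn1* value was that of KO 2, a library whose summed choroid plexus markers were within the WT range, with *Folr1*, *Aqp1* and *Clic6* below every WT library, and which also had the positive trend with transcript length (0.29). The part of either in the *Mfn1* value was not tested. Over the fits that left out 1 library the log2 fold change stayed between 0.31 and 0.50, and it was 0.34 after the length and GC adjustment.

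*Mfn2* (chr4:147873599-147904704), which also tethers mitochondria to the endoplasmic reticulum, had WT values of 25.4, 21.0 and 26.9 FPKM and KO values of 29.6, 22.6 and 41.4 FPKM. The groups overlapped, because KO 2 lay within the WT range while KO 3 stood above every other library. Its log2 fold change was 0.31 (standard error 0.24, 95% interval −0.24 to 0.85; limma adjusted p = 0.882, exact permutation p = 0.4), and it was 0.09 without KO 3, 0.51 without KO 2 and 0.39 after the length and GC adjustment.

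*Opa1* (chr16:29579334-29654884) had WT values of 7.88, 9.43 and 10.4 FPKM and KO values of 9.62, 11.4 and 7.47 FPKM. The lowest and the highest *Opa1* values were both from KO mice, and the means of 9.25 ± 1.29 and 9.48 ± 1.95 FPKM (SD, n = 3 each) differed by less than either SD. Its log2 fold change was 0.02 (95% interval −0.49 to 0.54), and it was −0.10 without KO 2 and 0.17 without KO 3.

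The log2 fold changes of the fission genes lay between 0.08 and 0.18. *Dnm1l* (chr16:16312230-16358959), the gene of the fission GTPase, had 21.5, 22.6 and 22.8 FPKM in WT mice, the tightest group of the 10 genes with a coefficient of variation of 3.2%. Its KO values were 26.7, 28.1 and 21.7 FPKM, so KO 1 and KO 2 lay above the WT range and KO 3 within it. The log2 fold change was 0.18 (standard error 0.19, 95% interval −0.25 to 0.60; limma adjusted p = 0.927, exact permutation p = 0.3), and 0.03 after the length and GC adjustment.

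*Fis1* (chr5:136953275-136966234), which encodes a small outer-membrane protein named for fission, had WT values of 129, 148 and 131 FPKM and KO values of 179, 105 and 159 FPKM. KO 1 and KO 3 stood above all WT libraries and KO 2 below all of them, so the KO group enclosed the WT group. On the log2(FPKM + 1) scale the WT SD was 0.11 and the KO SD 0.40, and they were 0.11 and 0.17 after the length and GC adjustment. *Fis1* has the shortest transcript of the 10 genes, with 948 bases in the longest annotated form. Its log2 fold change was 0.08 (95% interval −0.45 to 0.62), and it was −0.07 without KO 1, 0.31 without KO 2 and 0.11 after the length and GC adjustment.

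*Mff* (chr1:82724890-82752394), the gene of the adaptor that recruits DRP1, had WT values of 40.1, 34.8 and 38.1 FPKM and KO values of 36.6, 40.9 and 49.7 FPKM. KO 1 fell inside the WT range and KO 3 was highest. The log2 fold change was 0.16 (95% interval −0.28 to 0.59), 0.04 without KO 3, 0.26 without KO 1 and −0.05 after the length and GC adjustment.

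Among the mitophagy genes, *Pink1* (chr4:138313409-138326307) had WT values of 70.3, 76.1 and 63.5 FPKM and KO values of 79.4, 55.6 and 93.4 FPKM. As for *Fis1*, KO 1 and KO 3 were above and KO 2 below every WT library. Its log2 fold change was 0.09 (95% interval −0.42 to 0.60), 0.30 without KO 2, −0.07 without KO 3 and 0.27 after the length and GC adjustment. The gene of its partner Parkin, listed as *Park2*, was far lower, with 3.99, 5.02 and 2.32 FPKM in WT mice and 5.0, 4.91 and 1.45 FPKM in KO mice, and the groups overlapped.

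*Bnip3* (chr7:138890836-138909519) had WT values of 20.2, 13.8 and 17.9 FPKM and KO values of 21.8, 16.9 and 17.2 FPKM. *Bnip3l* (chr14:66985239-67008877), which is also needed for the clearance of mitochondria from maturing red blood cells, had WT values of 59.4, 51.1 and 61.5 FPKM and KO values of 65.8, 52.0 and 62.1 FPKM. In both genes KO 1 was highest and WT 2 lowest, and the KO and WT ranges overlapped. The log2 fold changes were 0.11 for *Bnip3* (95% interval −0.38 to 0.59) and 0.06 for *Bnip3l* (95% interval −0.37 to 0.49). Their sign was not stable: without WT 2 they were −0.04 and −0.02, and after the length and GC adjustment −0.06 and −0.07. The summed level of 6 erythroid markers was 2440, 1850 and 1780 FPKM in WT mice and 2350, 1300 and 1210 FPKM in KO mice, with *Hbb-bs* listed at 0 in WT 1 and in all 3 KO libraries, and their part in the *Bnip3l* level was not tested.

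*Fundc1* (chrX:17556564-17572325), the receptor gene on the X chromosome, had WT values of 17.9, 16.8 and 8.07 FPKM and KO values of 14.0, 13.3 and 14.9 FPKM. WT 3 lay below every other library, and the 3 KO libraries lay between WT 3 and WT 2. The coefficient of variation was 37.8% among WT libraries and 5.76% among KO libraries. The level of *Fundc1* rested on an estimated 166 to 409 fragments per library, and the 166 fragments of KO 2, for which counting error alone is 7.76%, were the fewest of any of the 10 genes. Its log2 fold change was 0.05 with all libraries (95% interval −0.59 to 0.69) and −0.29 without WT 3.

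Ratios of 2 genes within a library do not depend on the scaling of that library. They can still carry its length and GC trends where the 2 genes differ in these, and were not adjusted for them. Of 8 such ratios compared, none had an exact permutation p under 0.3. *Mfn2* exceeded *Mfn1* by 1.19, 1.17 and 1.30 times in WT mice and by 1.31 and 1.49 times in KO 1 and KO 3, whereas in KO 2 the ratio was 0.761. The order of the mitofusins was therefore turned in 1 of the 6 libraries. The ratio of *Opa1* to *Mfn1* was 0.369, 0.526 and 0.505 in WT mice and 0.426, 0.383 and 0.270 in KO mice, a log2 difference of −0.39 with overlapping groups (exact permutation p = 0.3). *Bnip3l* exceeded *Bnip3* by 3.36 ± 0.381 times in the WT group and by 3.24 ± 0.325 times in the KO group (SD, 3 libraries each), and the groups overlapped. *Fis1* exceeded *Dnm1l* by 5.73 to 6.55 times in WT mice, and by 6.71, 3.74 and 7.32 times in KO 1, KO 2 and KO 3. Their longest transcripts have 948 and 3966 bases. In KO 2 the log2 difference from the WT mean was −0.37 for *Fis1* and 0.32 for *Dnm1l*, and −0.09 and 0.09 after the length and GC adjustment. For *Mfn2* and *Mfn1* it was −0.10 and 0.55 before and −0.03 and 0.42 after the adjustment.

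**Figure D3:**
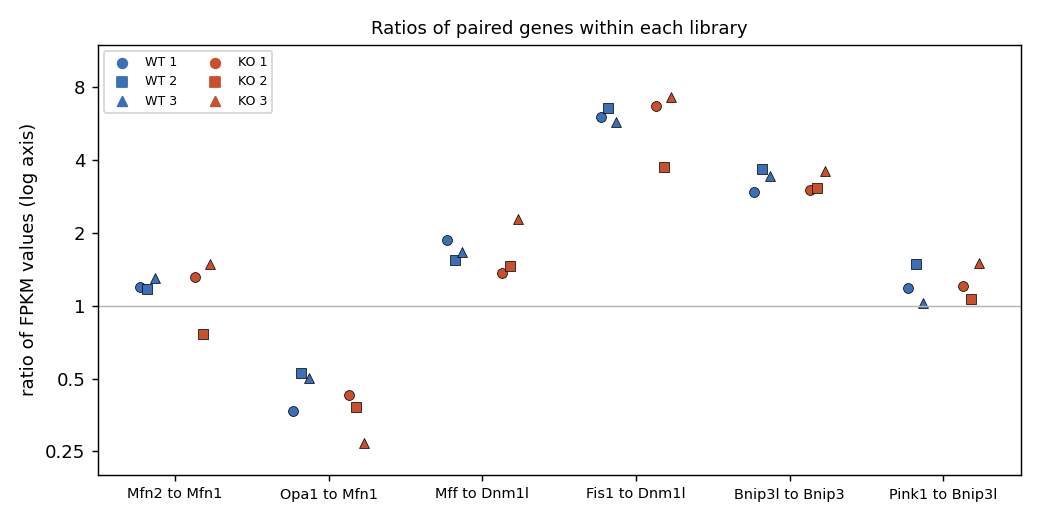
Ratios of FPKM values of paired genes within each library (log axis), without the length and GC adjustment, WT in blue and KO in red, with the shape giving the replicate number. The KO 2 square lies apart for *Mfn2* to *Mfn1* (0.761) and *Fis1* to *Dnm1l* (3.74), and the *Bnip3l* to *Bnip3* ratio stays between 2.94 and 3.69 in all libraries.

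The SD of log2(FPKM + 1) was larger in KO than in WT mice for 8 of 10 genes, beside 64.4% of all genes tested, and for 7 of 10 after the length and GC adjustment, beside 61.9% of all genes, so that the share was near that of other genes. KO 1 and KO 3 held the highest values of *Mfn2*, *Fis1*, *Pink1* and *Bnip3l*, 4 of 10 genes, as in 13.2% of all genes tested. These are also the libraries with high choroid plexus markers, and the part of these cells in the 4 genes was not tested. KO 2 alone differed from WT mice, on the log2 scale, by −0.10 for *Mfn2*, −0.37 for *Fis1*, −0.32 for *Pink1* and −0.13 for *Bnip3l*, genes picked here for their high values in the libraries left out, so that a smaller difference follows from the choice. For the other 6 genes the difference was 0.55 for *Mfn1*, 0.32 for *Dnm1l*, 0.28 for *Opa1*, 0.12 for *Mff*, −0.02 for *Fundc1* and −0.02 for *Bnip3* (limma with the spread of the WT mice; adjusted p = 0.385 for *Mfn1*).

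**Figure D4:**
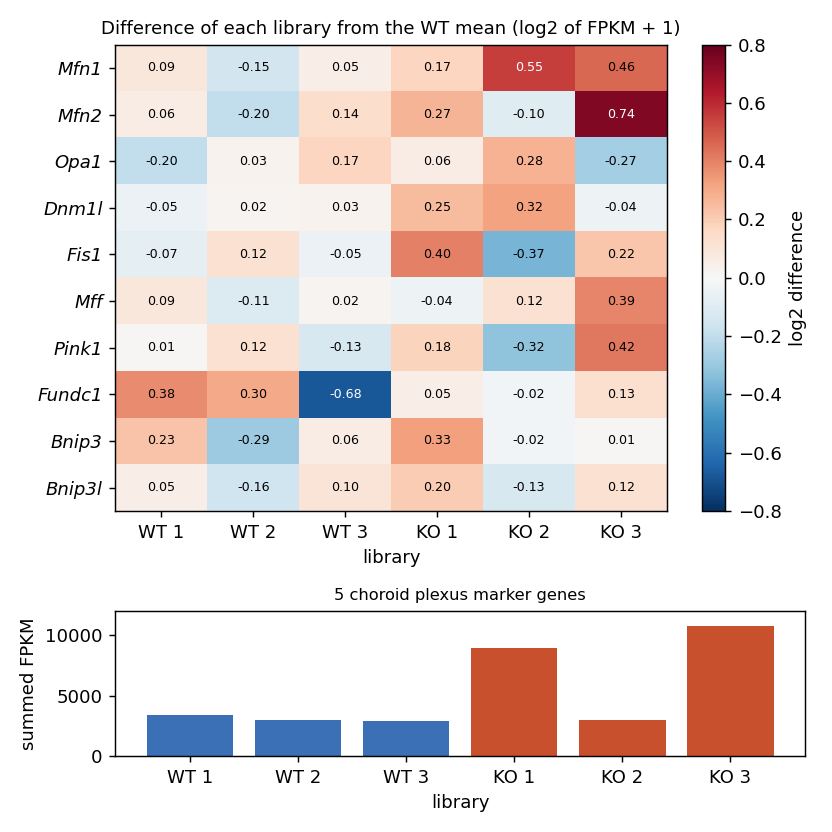
Upper panel, difference of each library from the WT mean on the log2(FPKM + 1) scale for the 10 genes (red higher, blue lower). Lower panel, summed FPKM of 5 choroid plexus marker genes in the same libraries, which is 8900 in KO 1 and 10700 in KO 3 and at most 3360 in the others. The *Fis1* and *Pink1* rows are positive in KO 1 and KO 3 and negative in KO 2, and *Fundc1* has its largest difference, −0.68, in WT 3.

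Markers of other cell types were summed in each library, without a test of the sums. The summed levels of 6 astrocyte markers (593 to 699 FPKM in WT mice, 449 to 499 in KO mice), 6 microglia and macrophage markers (116 to 140 and 96.5 to 105) and 5 fibroblast markers (1200 to 1810 and 800 to 1100) were lower in every KO library than in every WT library. Those of pericytes (789 to 1290 and 833 to 935), smooth muscle (225 to 561 and 257 to 754), neurons (192 to 399 and 133 to 338) and oligodendrocytes (271 to 392 and 145 to 348) overlapped. Of the 57 marker genes of all lists, 10 had an unadjusted limma p under 0.05, beside 5.88% of all genes tested, and 0 passed adjustment. Lower in KO mice were 9 of them (*Cdh5*, *Anpep*, *Gfap*, *Gja1*, *Slc17a7*, *Mag*, *Cnp*, *Hbb-bs* and *Col1a1*), where the value of *Hbb-bs* rests on WT 2 (126 FPKM) and WT 3 (10.6 FPKM), with 0 listed in the others although *Hba-a1* was abundant, and *Kl* of the choroid plexus was higher. The part of these cell types in the levels of the 10 genes was not tested.

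Other genes of the same pathways were examined in 7 lists, in which 98 of 101 genes were tested. None passed after adjustment (0 of 98), and 4 of 98 had an unadjusted limma p under 0.05, beside 5.88% of all genes tested. All 4 were higher in KO mice, where 2.77% of all genes were higher and 3.11% lower at that threshold. The 4 became 12 without KO 2 or with KO 2 alone and 2 without WT 1 or WT 2, and over all genes 838 became 1871 without KO 2. With KO 2 alone set against WT mice, the medians of these lists turned to −0.28 for fusion, −0.14 for fission, −0.14 for ubiquitin-dependent mitophagy and −0.20 for hypoxia-inducible factor targets, and were −0.15 for core autophagy, 0.02 for transport and 0.05 for receptor mitophagy. In the list of fusion and inner-membrane shaping genes, 12 of 18 were higher and 6 lower, with a median log2 fold change of 0.09 (0.25 without KO 2, −0.0 without KO 3). A pair of them had an unadjusted p under 0.05. *Fam73a* (now *Miga1*), whose outer-membrane product promotes fusion, had WT values of 6.52, 6.70 and 9.75 FPKM and KO values of 12.7, 11.2 and 16.6 FPKM, with no overlap, log2 fold change 0.75 (SE 0.24; limma p = 0.0115, adjusted p = 0.841; exact permutation p = 0.1). *Oma1*, the protease that cleaves OPA1 under stress, had WT values of 2.28, 6.12 and 5.35 FPKM and KO values of 9.54, 8.06 and 6.10 FPKM, where WT 2 was slightly above KO 3, and a log2 fold change of 0.73 (limma p = 0.0491, adjusted p = 0.841; exact permutation p = 0.2). Leaving out WT 1 moved the *Oma1* value to 0.39.

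The fission list held 8 genes with a higher and 5 with a lower value in KO mice (median 0.04, and −0.07 without KO 3). Its largest differences were those of *Inf2*, an actin-assembling formin, at −0.43, and *Mtfr1* at 0.42. Without KO 3 they were −0.29 and 0.13, and *Inf2* was at −0.23 after the length and GC adjustment. In the transport list 2 of 5 genes were higher (median −0.08, and 0.04 without WT 1). Its *Rhot2*, the gene of the adaptor MIRO2, had WT values of 14.9, 17.8 and 17.0 FPKM and KO values of 17.9, 21.9 and 25.5 FPKM (log2 fold change 0.36, limma adjusted p = 0.841). Of the ubiquitin-dependent mitophagy genes 9 of 13 were higher (median 0.09, and 0.20 without KO 2). *Parl*, the protease that cleaves PINK1, had WT values of 30.4, 23.5 and 35.9 FPKM and KO values of 55.8, 29.0 and 41.7 FPKM, and *Tbk1*, a kinase of mitophagy adaptors, had a log2 fold change of 0.44, and of 0.28 without KO 2. The log2 fold change of *Parl* was 0.45, with 0.23 when KO 1 was left out and 0.69 when KO 2 was. Of the receptor mitophagy genes 6 of 8 were higher (median 0.18), with the largest value, 0.47, for *Fbxl4*, which restrains BNIP3 and NIX. Without KO 3 *Fbxl4* was at 0.25, and without WT 1 at 0.71.

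Core autophagy genes were divided nearly evenly, with 12 of 28 higher and 16 lower (median −0.03). *Atg4a*, an LC3-processing protease, had WT values of 5.13, 6.08 and 8.0 FPKM and KO values of 10, 9.99 and 9.13 FPKM (log2 fold change 0.55; limma p = 0.0369, adjusted p = 0.841; exact permutation p = 0.1). *Atg10* had the largest log2 fold change of the list, 0.76, with overlapping groups, and was at 0.43 without WT 2 and 1.11 without WT 3. *Wipi1*, which binds the lipid of the forming autophagosome, had WT values of 21.1, 25.7 and 20.5 FPKM and KO values of 15.1, 13.1 and 20 FPKM (log2 fold change −0.47, limma adjusted p = 0.841). Of the 98 list genes tested it was the only gene with every KO library below every WT library, as in 5.7% of all genes. The reverse order held for 2 genes of the fusion list and 1 of every other list, as in 5.37% of all genes. Of the hypoxia-inducible factor targets, a group to which *Bnip3* is known to belong, 7 of 13 were higher (median 0.08, and −0.03 without KO 1 or without KO 3). *Vegfa* had WT values of 24.4, 19.0 and 17.9 FPKM and KO values of 28.9, 30.3 and 25.6 FPKM, with no overlap (log2 fold change 0.46; limma p = 0.0458, adjusted p = 0.841; exact permutation p = 0.1). *Pgk1* had a log2 fold change of 0.54 and *Ankrd37* of 0.50, both with overlapping groups. *Pgk1*, whose KO 1 and KO 3 values lay above every WT library, was at 0.29 without KO 3 and 0.85 without KO 2. *Ankrd37* was at −0.08 without KO 2, its highest library, and 1.04 without KO 1.

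**Figure D5:**
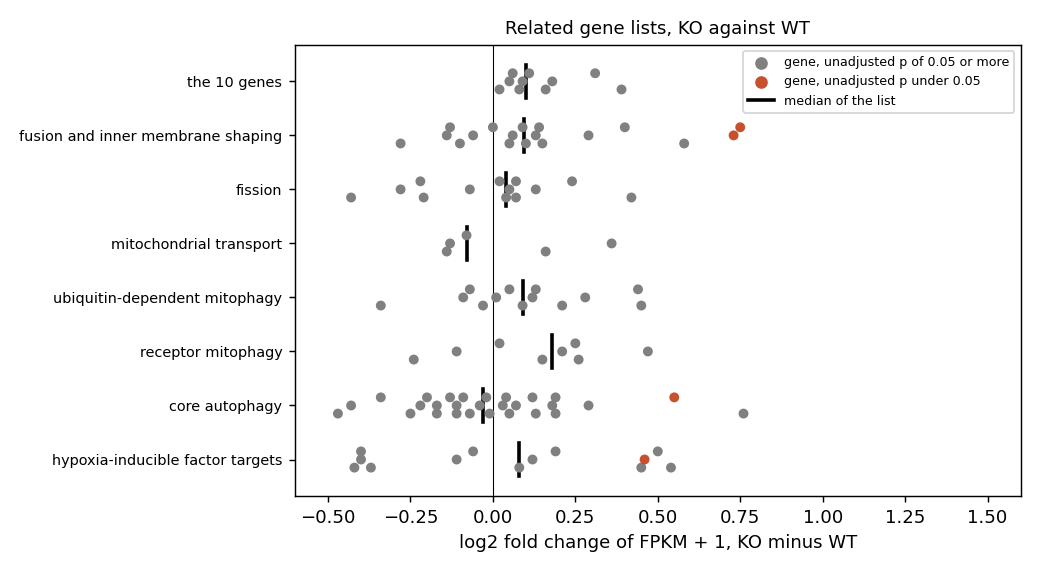
Log2 fold change (KO minus WT) of the 10 genes and of the tested genes of 7 related lists, 1 point per gene, with the median of each list as a black bar. Genes with an unadjusted limma p under 0.05 are red, namely *Fam73a*, *Oma1*, *Atg4a* and *Vegfa*, and none had an adjusted p under 0.05.

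The genes whose pattern over the 6 libraries was most like that of a member were ranked by Pearson's r of log2(FPKM + 1), as a description of libraries that share their depth and composition. For *Mfn2* they were *Cox6b2* (r = 0.999), *Lta4h* (r = 0.995) and *Rchy1* (r = 0.994), and *Cox6b2* had 115 FPKM in KO 3 against 34.2 to 61.6 FPKM in the others. For *Fis1* they were *Uqcc3* (r = 0.998), *Trappc2l* (r = 0.987) and *Fam195b* (r = 0.986), each lowest in KO 2. For *Bnip3* they were *Fam213b* (r = 0.996), *Arrdc2* (r = 0.993) and *Coil* (r = 0.981), each highest in KO 1. With 6 libraries such values are common: 70, 86 and 25 genes exceeded 0.95 for *Mfn2*, *Fis1* and *Bnip3*. Among all pairs of the 10 genes, the most extreme r were 0.86 between *Fis1* and *Pink1*, 0.80 between *Bnip3* and *Bnip3l*, and −0.79 between *Opa1* and *Pink1*. Pairs of the same function had r of −0.61 to 0.44 for fusion, −0.25 to −0.05 for fission and −0.27 to 0.80 for mitophagy.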

How the data were processed

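Microvessel RNA (3 libraries per genotype) was extracted with TRIzol and prepared with a directional kit. The authors trimmed reads with FASTX_Trimmer and BBMap, mapped them with TopHat (mm10 per the submitters' processing notes) and deposited FPKM values for each library. The quantifier and any scaling between libraries are not given in the sources used here, nor is counting by strand. *Bnip3*, *Dnm1l*, *Mff* and *Mfn2* overlap genes of the opposite strand, so their values may include reads of these. Read counts were not used here, so the count model of the study was replaced by limma 3.58.1 (R 4.3.3) on log2(FPKM + 1), with a trended variance, keeping genes whose mean reached 1 FPKM. A fold change on this scale understates low genes. Each gene was also tested with an exact permutation test. Groups and library numbers followed the sample titles, and the study's legends give 3 mice per group. The column headers carry other numbers (4, 6 and 8 for WT 1 to WT 3, and 1, 2 and 6 for KO 1 to KO 3), whose meaning is not stated.

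Positions, lengths and GC content came from GENCODE M21 (GRCm38), matched for 22148 symbols and, by synonym, for 642. Depth was estimated from genes with 1 annotated transcript under 0.3 FPKM. It was 11500000, 8900000 and 11500000 fragments in WT and 7900000, 6300000 and 11600000 in KO libraries, where 3 fragments on 1 kb equal 0.258 to 0.475 FPKM, counting error only. On simulated data for KO against WT with 14247 genes, adjustment left 0 of 200 simulated 1.5-fold changes (108 before it). It left 0 of 200 simulated 2-fold changes (155 before it) and 157 of 200 simulated 4-fold changes. The simulation gave each gene a spread drawn from another gene and independent noise, so the length, GC and composition differences of these libraries were not part of it.

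The genes, lists and tests were chosen with earlier results of these data known. Genes named were the 10, *Crif1*, fixed markers, list genes with an unadjusted p under 0.05 or among the 2 largest differences of a list, and the 3 genes most correlated with *Mfn2*, *Fis1* and *Bnip3*. *Park2*, *Wipi1* and the autophagy genes of the closing section were added after their values were seen. Alternatives were other filters, pseudocounts, scalings, variance models, a replicate block, correction for length and GC content by loess (span 0.3), and leaving out each library.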

Additional observations from a re-analysis of the deposited data

How the results depend on the processing

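Under the 16 alternatives no member passed adjustment, and *Mfn1* and *Dnm1l* kept a positive log2 fold change in each of them. 1 member had an unadjusted limma p under 0.05 without a filter on low values (*Mfn1*), and 0 to 1 with each library left out (*Mfn1* without KO 1, *Mfn2* without KO 2). The correction for length and GC content gave negative values for *Opa1* (−0.07), *Mff* (−0.05), *Fundc1* (−0.16), *Bnip3* (−0.06) and *Bnip3l* (−0.07), and raised *Pink1* to 0.27 and *Mfn2* to 0.39. With each library left out, the log2 fold change lay between −0.10 and 0.17 for *Opa1*, 0.11 and 0.28 for *Dnm1l*, −0.07 and 0.31 for *Fis1*, 0.04 and 0.26 for *Mff*, −0.07 and 0.30 for *Pink1*, −0.29 and 0.24 for *Fundc1*, −0.04 and 0.22 for *Bnip3*, and −0.02 and 0.16 for *Bnip3l*. With KO 2 alone against WT, an alternative added after the data were seen in which the lone library is assumed to vary like the WT group, the values were −0.10 for *Mfn2*, −0.37 for *Fis1*, −0.32 for *Pink1*, −0.02 for *Fundc1*, −0.02 for *Bnip3* and −0.13 for *Bnip3l*. The cause of these shifts was not tested.

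Of the pathway list genes, 2 had an unadjusted p under 0.05 without the trended variance, 2 to 12 with each library left out (12 without KO 2) and 12 with KO 2 alone, where 1 member did. Over all genes, 838 had an unadjusted p under 0.05, 450 (without WT 2) to 1871 (without KO 2) with a library left out, and 1825 with KO 2 alone. After adjustment 0 to 4 passed with a library left out and 7 with KO 2 alone. The title numbers gave no sign of a pairing of the mice, although such a check cannot exclude it. Deviations of same-numbered libraries had correlations of 0.002 to 0.037, and WT 1 correlated best with KO 3. The headers' number 6, shared by WT 2 and KO 3, went with a correlation of −0.049. With the replicate block 2 list genes and 871 genes in all had an unadjusted p under 0.05. Depth limits *Fundc1* and *Bnip3* most, with an estimated 166 and 187 fragments in KO 2.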

Other observations

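The autophagosome proteins that mitophagy receptors bind, the LC3 and GABARAP family, were among the more abundant transcripts of the related lists. The WT and KO means of *Gabarap* were 214 ± 18.2 and 239 ± 62.4 FPKM, and those of *Map1lc3a* were 193 ± 27.8 and 202 ± 55.1 FPKM (SD, n = 3 each). Both were lowest in KO 2. *Map1lc3b* had WT values of 88.4, 77.7 and 75.3 FPKM and KO values of 76.6, 51.3 and 77.5 FPKM. Among the adaptors that link ubiquitin to these proteins, *Sqstm1* (p62) had WT values of 157, 134 and 142 FPKM and KO values of 144, 101 and 168 FPKM, whereas *Optn* (optineurin) stayed between 5.73 and 8.66 FPKM in all libraries. *Calcoco2* was listed at 0, 0 and 0.0439 FPKM in WT mice and at 0.95, 0.312 and 0.0427 FPKM in KO mice. It did not pass the filter on low values and was not tested.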
